A study of Mus musculus with 6 samples.

Results

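The genes described here encode the nuclear subunits of the 5 oxidative phosphorylation complexes. They were taken by symbol from the array's platform annotation: symbols starting with Ndufa, Ndufb, Ndufc, Ndufs or Ndufv (complex I, without the Ndufaf assembly factors), Sdha to Sdhd (complex II), Uqcr genes and Cyc1 (complex III), Cox4 to Cox8 genes of any isoform (complex IV) and Atp5 genes (complex V). The rule found 80 such genes among 19057 genes with a probe, and 72 of them were measured, among 8205 genes measured in all. A gene was measured when a probe had a detection p under 0.01, that is, a signal above the array's negative controls, on at least 3 of the 6 arrays. Measured genes numbered 35 of 36 in complex I, 3 of 4 in complex II, 7 of 8 in complex III, 11 of 16 in complex IV and 16 of 16 in complex V.

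The RNA came from primary macrophages grown from the bone marrow of wild type c57Bl6/J mice, males of 10 weeks. Cultures in MSF media received a control peptide or the RI-BPI peptide, both at 5 μM and for 12 h, and total RNA was hybridised to 3 bead arrays per peptide. RI-BPI is a retro-inverso peptide made to block the contact of the transcriptional repressor Bcl6 with its corepressors SMRT and NCoR. The comparison asked which transcripts differ when that contact is targeted, and whether the contact was blocked was not measured on the arrays. Per the labels, the arrays within a group are technical replicates. The p-values below therefore refer to array-to-array spread only, and nothing here estimates how cultures or mice vary.

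The respiratory chain passes electrons from NADH (complex I) and succinate (complex II) through ubiquinone, complex III and cytochrome c to oxygen at complex IV. Complexes I, III and IV pump protons across the mitochondrial inner membrane, and complex V, the ATP synthase, uses the returning protons to make ATP. Most subunits are encoded in the nucleus and a small core in mitochondrial DNA, so assembly needs both genomes. In macrophages the balance between oxidative phosphorylation and glycolysis is known to shift with activation, alternatively activated cells relying more on respiration.

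Between 13866 and 14357 probes were detected on the control arrays and between 12931 and 13843 on the RI-BPI arrays, of 45281 probes on each. Each measured value of these genes averages 18 to 87 beads, with a median of 43. Over the 72 genes, Pearson correlations across genes were 0.992 to 0.998 between arrays of the same peptide and 0.976 to 0.984 between peptides (genes are not independent replicates). Of 9 macrophage markers with a probe 8 were measured. Lower after RI-BPI were 5 of the 8 (Adgre1, Itgam, Mrc1, Fcgr1 and Mertk), or 62.5%, beside 30.6% of all measured genes. Csf1r, Cd14 and Lyz2 did not pass the test (a second probe of Csf1r gave -0.96). Itgam passed the detection filter through the control arrays alone. Signals were also summed per list, as raw intensities over every probe, detected or not, with no background subtracted. The summed signal of the 9 macrophage markers was 64661 to 69650 on the control arrays and 53498 to 60518 on the RI-BPI arrays. Among markers of other cells, S100a8 was the 1 of 7 neutrophil genes measured (0.36 higher on the log2 scale) and Cd79b the 1 of 5 lymphocyte genes (a log2 change of -0.64, called, and detected on the control arrays alone). None of 6 dendritic cell, 6 fibroblast, 3 erythroid and mast cell and 4 muscle genes passed the detection filter. The summed neutrophil signal was 817 to 822 with the control peptide and 882 to 935 with RI-BPI, the dendritic cell signal 516 to 547 and 555 to 563, and the lymphocyte signal 324 to 355 and 313 to 333. For stroma it was 514 to 541 and 531 to 539, and for erythroid and mast cells 209 to 217 and 218 to 222. The median raw intensity of all probes was 45.8 to 47.4 per array. Sums of lists with few or no detected genes therefore hold much background and are not read as changes of those cells. The part of these marker changes in the results below was not tested. The cultures were measured in bulk, so fewer cells of a type and less RNA per cell cannot be told apart.

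Most oxidative phosphorylation transcripts read slightly lower with RI-BPI than with the control peptide. With limma, at a Benjamini-Hochberg adjusted p under 0.05, 27 of the 72 measured genes were lower after RI-BPI, 3 were higher and 42 were not called. The lower calls comprised 16 genes of complex I, 2 of complex II, 2 of complex III, 3 of complex IV and 4 of complex V. The 3 higher genes were Cox6a2, Uqcrq and Cyc1. In the same test 61.3% of all measured genes were called, 30.7% higher and 30.6% lower. Of the 72 genes 41.7% were called, 4.17% higher and 37.5% lower, so the share called was under the background, the higher share was under a background of 30.7% and the lower share was above one of 30.6%. Ndufb11, among the lower genes, passed the detection filter through the control arrays alone.

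The changes were small. The median log2 change (RI-BPI minus control) was -0.16, with quartiles of -0.39 and 0.0047, against a median of 0.0080 over all measured genes. The median size of the change regardless of sign was 0.20 for these genes and 0.37 for all genes. A fold of at least 1.5 was reached by 6 of the lower and 2 of the higher genes, 8 of 72, where 29.9% of all genes were called with such a fold. The lower 6 were Ndufv3, Ndufb3, Sdhc, Atp5g2, Atp5pb and Uqcr11. The change was negative for 73.6% of the 72 genes and for 49.4% of all genes. On 33 genes every RI-BPI array lay below every control array, and on 3 every RI-BPI array lay above, against backgrounds of 32.3% and 32.5% of all measured genes.

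**Figure D1:**
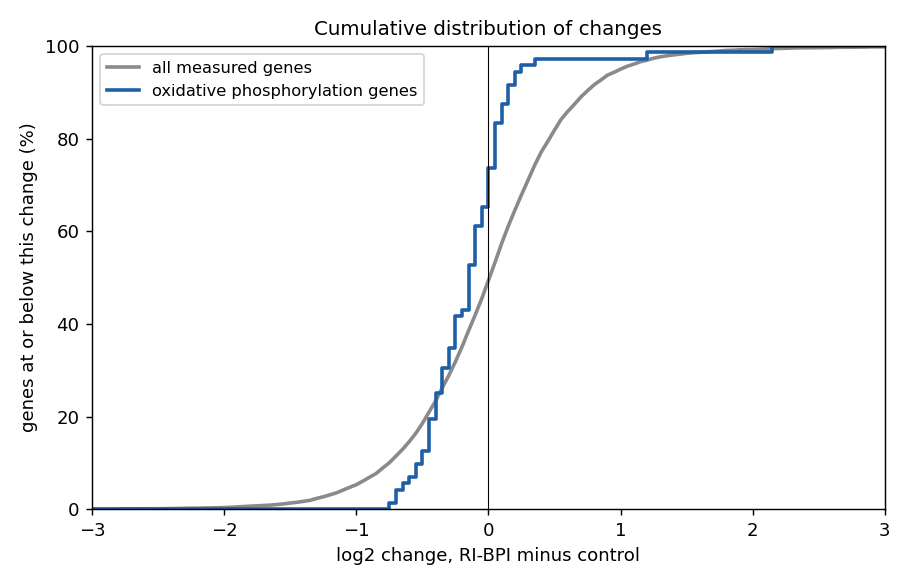
Cumulative share of genes (%) at or below each log2 change (RI-BPI minus control), for all 8205 measured genes and for the 72 oxidative phosphorylation genes. The line of the 72 genes lies left of the grey line near 0, where 73.6% of them and 49.4% of all genes were negative. At or below -0.5 lay 12.5% of the 72 and 18.5% of all genes, and at or below 0.5 lay 97.2% and 81.8%. At the far right, where Cox6a2 lies, the 72 genes do not have the smaller share.

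Over the whole set the shift was seen on each RI-BPI array. Taking each gene's deviation from its control mean, the median over the 72 genes was -0.18, -0.20 and -0.15 on the 3 RI-BPI arrays and -0.0015, -0.0047 and 0.0048 on the control arrays. The same medians over all genes were 0.013, 0.0087 and 0.0079 on the RI-BPI arrays. Within complex I the RI-BPI medians were -0.21, -0.29 and -0.16, and within complex II -0.28, -0.42 and -0.77. Within complex III they were -0.03, 0.04 and -0.04, within complex IV -0.21, -0.18 and -0.06, and within complex V -0.13, -0.14 and -0.16. Leaving out any 1 array kept the median of the 72 genes between -0.18 and -0.12.

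**Figure D2:**
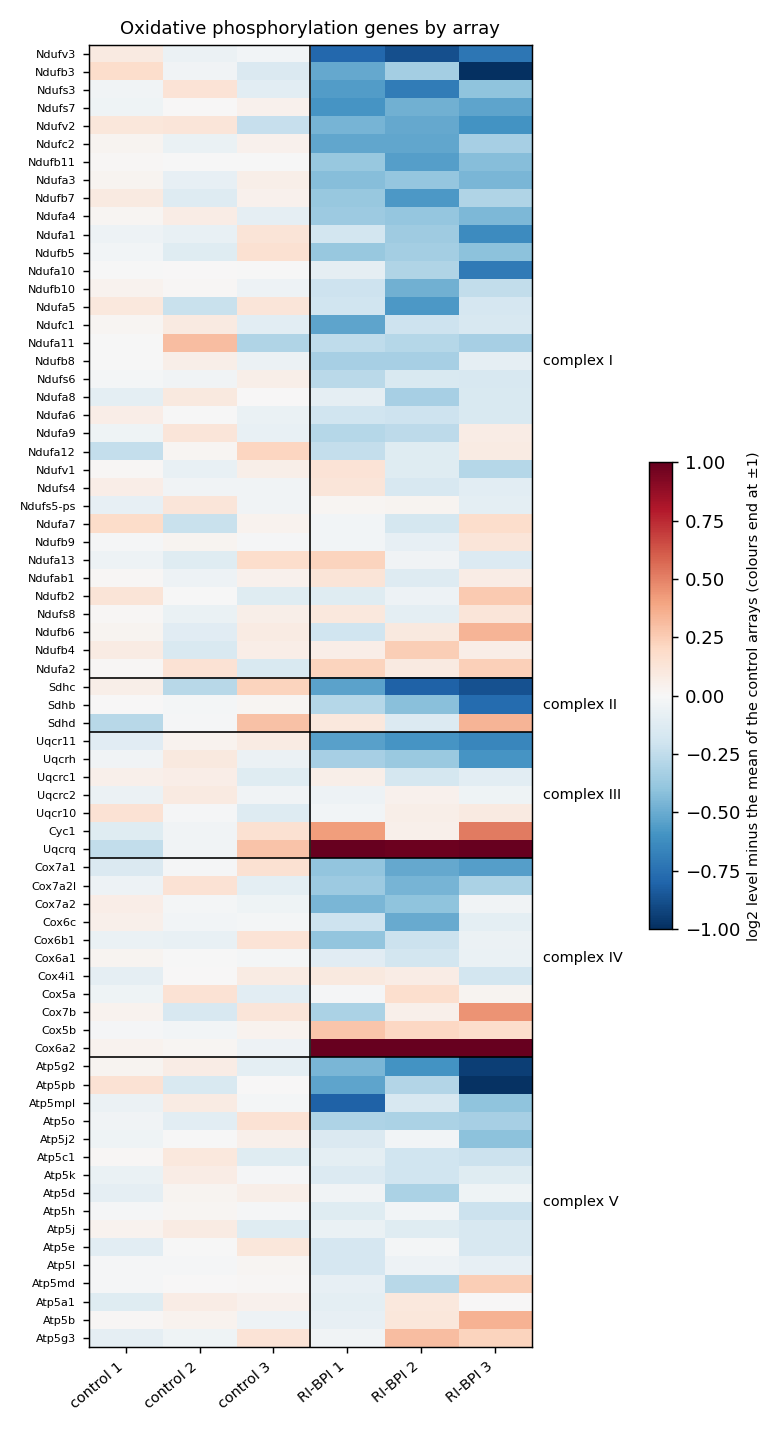
Log2 level of each of the 72 measured genes on each of the 6 arrays, as the difference from the mean of the 3 control arrays, grouped by complex and ordered by change within each. Blue cells (below the control mean) fill most of the RI-BPI columns, where 33 genes lay below every control value on all 3 arrays, and the dark red rows are Uqcrq and Cox6a2, whose colours end at the limit of the scale.

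Several respiratory genes are known targets of the transcription factors NRF1 and GABP, an ETS factor, and the promoters of lower genes that hold either motif are printed here. The transcripts Nrf1, Gabpa and Gabpb1 rose (below), and a link between them and the lower genes was not tested. RefSeq gave a promoter for 65 of the 80 genes (assembly GRCm38.p6). In the 250 bases before the start site, on either strand, the NRF1 motif GCGCANGCG was found in 13 of the 65 promoters (20.0%), in 13.9% of the promoters of all measured genes and in 5.86% of all promoters. It was in 2 of 25 promoters of lower genes and in 10 of 35 promoters of measured genes that were not called. The ETS motif CCGGAAG was in 12 of the 65 (18.5%), in 17.4% for all measured genes and in 7.83% of all promoters, with 4 of 25 among lower genes and 8 of 35 among those not called. The YY1 motif ATGGCGGC was in 1 of the 65 (1.54%, against 2.41% for all measured genes and 1.19% of all promoters) and the motif AAGGTCA of estrogen-related receptors in 4 (6.15%, against 3.40% and 4.70%). No motif overlapped another of a different name in the stretches printed. A match is a description of letters and not evidence of a bound site. Each line gives the 100 bases that end at the base before the start site, 5′ to 3′ on the gene's strand, with the NRF1 or ETS match in capitals; Atp5g2 holds 2 overlapping NRF1 matches, 1 per strand, and Uqcrh holds the ETS motif on the opposite strand.
Atp5g2: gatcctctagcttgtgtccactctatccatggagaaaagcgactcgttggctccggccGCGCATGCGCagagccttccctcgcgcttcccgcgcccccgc
Ndufa5: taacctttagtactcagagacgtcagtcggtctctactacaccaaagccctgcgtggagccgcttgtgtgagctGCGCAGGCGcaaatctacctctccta
Ndufb7: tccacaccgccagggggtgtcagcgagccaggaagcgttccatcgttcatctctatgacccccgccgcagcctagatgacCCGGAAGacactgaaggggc
Ndufs3: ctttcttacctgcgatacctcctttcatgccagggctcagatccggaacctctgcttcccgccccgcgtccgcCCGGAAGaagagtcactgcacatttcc
Uqcr11: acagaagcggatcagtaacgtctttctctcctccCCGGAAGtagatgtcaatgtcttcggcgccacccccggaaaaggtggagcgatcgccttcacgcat
Uqcrh: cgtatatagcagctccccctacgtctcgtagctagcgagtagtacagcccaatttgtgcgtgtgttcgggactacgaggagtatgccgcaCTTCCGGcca
These lie at chr15:102671048-102671147 (minus strand), chr6:24527691-24527790 (minus), chr8:83566658-83566757 (plus), chr2:90904722-90904821 (minus), chr10:80406822-80406921 (minus) and chr4:116075071-116075170 (minus), in that order. The capitals start 42, 26, 20, 27, 66 and 10 bases before the start site. Ndufa5 has another RefSeq promoter, not printed, where the same match starts at -190 from the start site.

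In complex I, the NADH dehydrogenase that feeds electrons to ubiquinone, 16 of 35 measured subunits fell and none rose (limma). At an unadjusted p under 0.05, 18 were lower and 0 higher, beside 2643 lower and 2682 higher of all 8205 measured genes. The 45.7% called compares with 61.3% of all measured genes, of which 30.6% were lower and 30.7% higher. The median log2 change was -0.25. A split by role, made after the values were seen, put 3 of 5 measured subunits of the catalytic core among the lower genes (Ndufs3, Ndufs7 and Ndufv2, with Ndufs8 and Ndufv1 not called) and 13 of 30 of the supernumerary subunits, which surround the core.

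Ndufv3, an accessory subunit bound near the NADH-oxidising tip of the complex, had log2 intensities of 11.24, 11.10 and 11.13 on the control arrays and 10.37, 10.27 and 10.43 on the RI-BPI arrays. The groups lay apart by more than the spread within either. The change was -0.80 ± 0.11 (SE), 1.74-fold lower (limma, adjusted p = 2.59e-06). Its other kept probes gave -1.03 and -0.32, both called.

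Ndufb3, a supernumerary membrane subunit, read 9.38, 9.17 and 9.06 with the control peptide and 8.69, 8.86 and 7.84 with RI-BPI. The third RI-BPI array was the lowest by far, although the groups did not overlap. The change was -0.74 ± 0.18 (SE) with an adjusted p of 0.00166 by limma, and without the third RI-BPI array it was -0.42. With no detection filter, where 19057 genes were tested, the call was lost (adjusted p = 0.0683).

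Ndufs3, a core subunit of the matrix arm, read 9.94, 10.11 and 9.87 with the control peptide against 9.42, 9.28 and 9.57 with RI-BPI. Its change was -0.55 ± 0.11 (SE; limma, adjusted p = 0.000348). Ndufs7, the core subunit that holds the last iron-sulfur cluster before ubiquinone, read 11.30, 11.35 and 11.39 against 10.76, 10.86 and 10.82. The 3 values of each group for Ndufs7 lay close together, and the change was -0.53 ± 0.10 (SE; limma, adjusted p = 0.000192). Ndufs3 and Ndufs7 had no overlap between the peptides.

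Ndufv1, the core subunit that binds NADH and flavin, did not share this change. It read 10.32, 10.24 and 10.37 with the control peptide and 10.44, 10.19 and 10.02 with RI-BPI, so the groups overlapped, and its change of -0.09 ± 0.12 (SE) was not called (limma, adjusted p = 0.524). Ndufs1, the largest core subunit, was not detected on any array.

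The remaining lower genes of complex I changed by -0.53 to -0.30. Ndufv2, the core subunit with a cluster next to the flavin, changed by -0.53, and Ndufc2 and Ndufa3 by -0.46 and -0.42. Ndufb7, Ndufa4, Ndufa1 and Ndufb5 changed by -0.42, -0.40, -0.39 and -0.38. Ndufa4 is counted here by its symbol although the protein is now placed in complex IV. Moving it there left 15 called genes in complex I and made 5 in complex IV.

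Ndufb11 was detected on all 3 control arrays and not well above background on any RI-BPI array. Its measured means were 5.08 and 4.63 on the log2 scale, which makes it at least 1.18-fold lower. The bound sets the control mean against the lowest signal called detected on each RI-BPI array. It entered the fit through the control arrays, where it was higher, so its call (limma, adjusted p = 0.000955) is not independent of the filter.

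Ndufa10, Ndufb10, Ndufa5 and Ndufc1 changed by -0.36, -0.31, -0.31 and -0.30, and their calls were lost in 3 or 4 of the 6 fits that left out 1 array. The call of Ndufa10 was lost without any 1 of the control arrays, where the change stayed at -0.37 to -0.36 (limma, adjusted p up to 0.0576), and without the third RI-BPI array, where it was -0.19 (adjusted p = 0.157). That of Ndufb10 was lost without control replicate 1 or 2 (-0.29 and -0.31) or RI-BPI replicate 2 (-0.23), with an adjusted p of up to 0.106. Ndufa5 lost its call without control replicate 1 or 3 (-0.26 and -0.25) or RI-BPI replicate 2 (-0.18), with an adjusted p of up to 0.250. Ndufc1 lost it without control replicate 1 or 2 (-0.28 and -0.25) or RI-BPI replicate 1 (-0.18), with an adjusted p of up to 0.188. Ndufa1 was lost without control replicate 3, at -0.32 (adjusted p = 0.0565).

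The 19 subunits of complex I that were not called had changes from -0.29 (Ndufa11) to 0.19 (Ndufa2), and 3 of them, at -0.25 (Ndufb8), -0.20 (Ndufs6) and -0.19 (Ndufa6), had every RI-BPI array below every control array. The probe named Ndufs5-ps carries a pseudogene symbol that fits the naming rule, and it changed by -0.017.

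Where a gene of complex I had several kept probes, they did not always move alike. Ndufs6 was not called at the probe used (-0.20) and fell at its other probe (-0.59), and Ndufa8 gave -0.19 and -0.36, the latter called. Ndufb6 gave 0.08 at the probe used and rose at the other (0.38). Ndufa5 gave -0.31 and 0.05, Ndufb10 -0.31 and -0.10, Ndufs4 -0.05 against -0.09 to 0.13, and Ndufab1 0.03 against -0.20 to 0.17. In Ndufa3, Ndufb8 and Ndufc1 the probes differed by less than 1.5 times and had the same sign, although the other probe of Ndufb8 was called (-0.27).

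**Figure D3:**
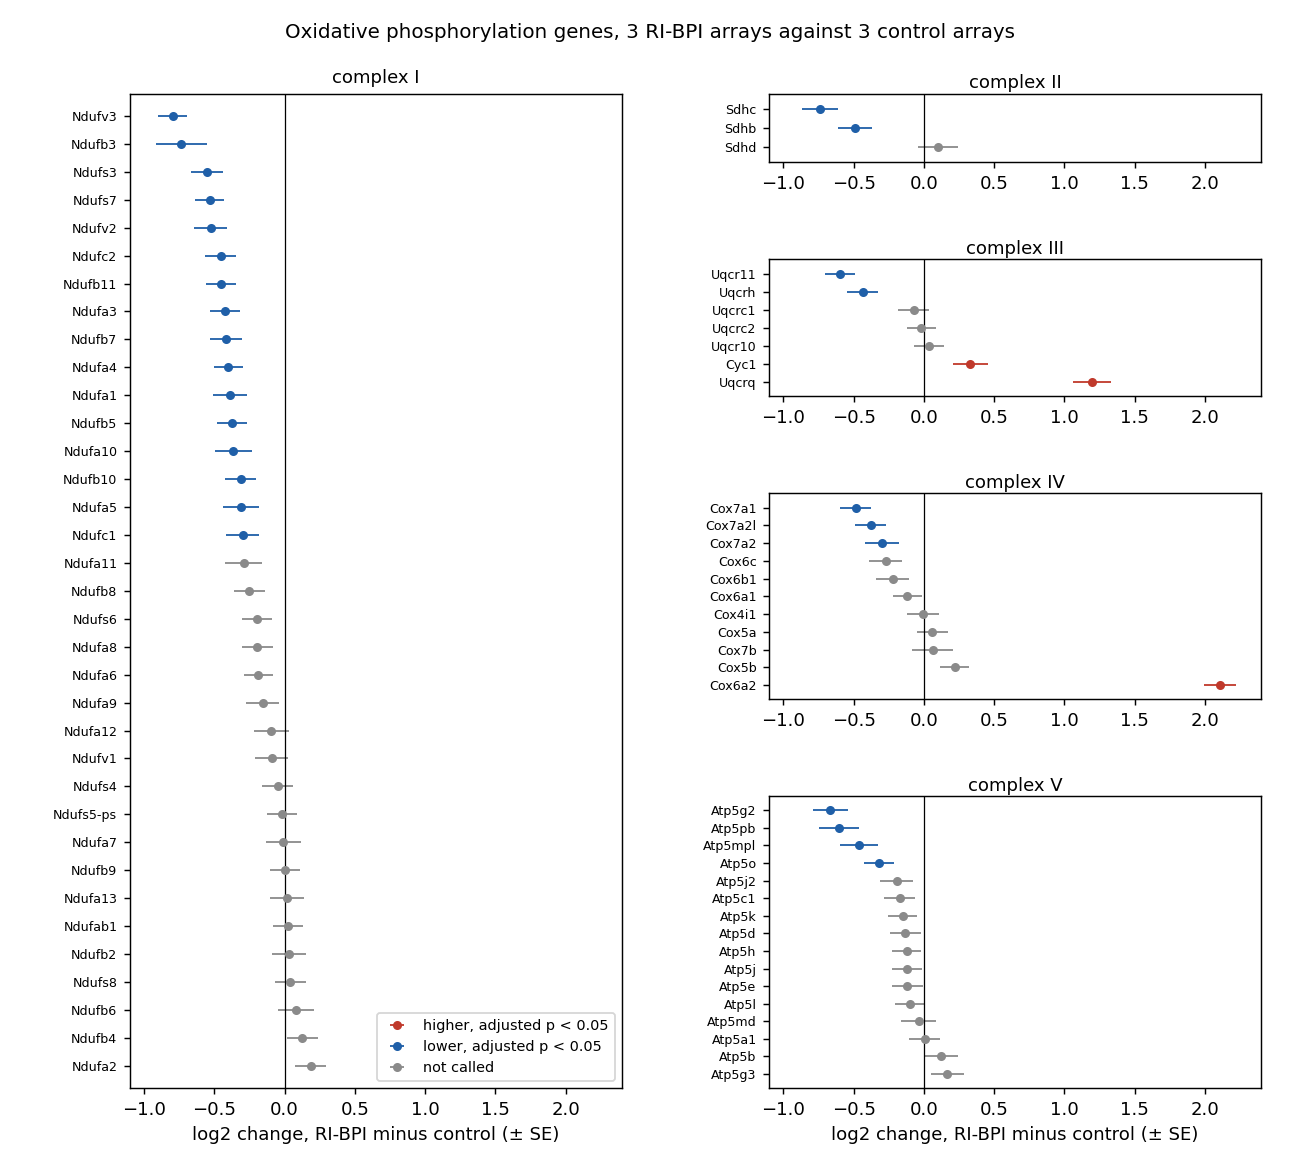
Log2 change (RI-BPI minus control) ± SE of each measured gene by complex, from the limma fit of 3 arrays against 3. Blue marks the 27 lower and red the 3 higher genes at an adjusted p under 0.05, and grey the 42 not called.

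Complex II is succinate dehydrogenase, the enzyme shared by the respiratory chain and the tricarboxylic acid cycle. Of its 3 measured subunits Sdhc and Sdhb fell, and Sdhd was not called. The lower share of these 3 genes was 66.7%, beside 30.6% of all measured genes. Sdhc, a membrane anchor that binds heme and ubiquinone, read 9.89, 9.55 and 10.06 on the control arrays and 9.30, 9.03 and 8.96 on the RI-BPI arrays. The groups did not overlap, and the change was -0.74 ± 0.13 (SE), 1.67-fold lower (limma, adjusted p = 6.98e-05).

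Sdhb, the iron-sulfur subunit, read 10.48, 10.45 and 10.50 with the control peptide and 10.19, 10.06 and 9.71 with RI-BPI. The control values were nearly equal and the RI-BPI values spread over more of the scale, all of them lower. Its change was -0.49 ± 0.12 (SE; limma, adjusted p = 0.00178), and its other kept probe gave -0.36, also called. Sdhd, the other membrane anchor, changed by 0.10 ± 0.14 (SE). Sdha, the flavoprotein subunit, was not detected on any array, with raw intensities of 44.5 to 47.5.

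Complex III, the cytochrome bc1 complex, changed in both directions, with a median change of -0.017. Of 7 measured subunits Uqcrq and Cyc1 rose and Uqcr11 and Uqcrh fell. These are 28.6% higher and 28.6% lower, beside 30.7% and 30.6% of all measured genes. Uqcr11, a small supernumerary subunit, read 11.37, 11.52 and 11.57 with the control peptide and 10.95, 10.90 and 10.84 with RI-BPI. Its groups lay apart, with a change of -0.59 ± 0.11 (SE), 1.51-fold lower (limma, adjusted p = 8.16e-05).

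Uqcrh, the hinge subunit that helps cytochrome c1 meet cytochrome c, read 11.77, 11.89 and 11.74 against 11.46, 11.43 and 11.21. All 3 RI-BPI values lay below the control values, and the change was -0.43 ± 0.11 (SE; limma, adjusted p = 0.00216).

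Uqcrq, a small subunit next to cytochrome b, read 6.57, 6.78 and 7.10 with the control peptide and 8.07, 7.80 and 8.19 with RI-BPI. Every RI-BPI array lay well above every control array, and the change was 1.20 ± 0.13 (SE), 2.30-fold higher (limma, adjusted p = 2.79e-07). The probe behind this value is annotated to a cDNA clone, and the probe annotated to the gene's RefSeq transcript was not detected on any array, so the rise is that of the clone's probe.

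Cyc1, cytochrome c1, which hands electrons to cytochrome c, read 9.61, 9.70 and 9.88 against 10.15, 9.78 and 10.25. The second RI-BPI array lay within the control range. The change was 0.33 ± 0.13 (SE; limma, adjusted p = 0.0285), and the call was lost without control replicate 1 or 2 or without RI-BPI replicate 1 or 3, with changes of 0.24 to 0.32 (adjusted p up to 0.124).

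Uqcrc1, a core protein on the matrix side, read 10.78, 10.79 and 10.61 with the control peptide and 10.79, 10.55 and 10.62 with RI-BPI, and its change of -0.07 ± 0.11 (SE) was not called (limma, adjusted p = 0.595). Uqcrc2, the other core protein, changed by -0.017 and Uqcr10 by 0.04 at the probe used and 0.12 at its other probe, all without a call. Uqcrfs1, the Rieske iron-sulfur protein, was not detected on any array with either of its 2 probes.

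In complex IV, cytochrome c oxidase, the largest change of all 72 genes sat in an isoform that is known from heart and skeletal muscle, Cox6a2, which rose. Of 11 measured subunits 3 fell (Cox7a1, Cox7a2l and Cox7a2) and the median change was -0.12. By share, 27.3% were lower and 9.09% higher, both under the 30.6% and 30.7% of all measured genes. Cox6a2 read 5.78, 5.77 and 5.70 on the control arrays and 7.95, 7.998 and 7.63 on the RI-BPI arrays. The control values were close together and more than a log2 unit below the lowest RI-BPI value. The change was 2.11 ± 0.12 (SE), 4.31-fold higher (limma, adjusted p = 1.13e-11), and it lay between 1.60 and 2.22 in the alternative fits.

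The raw intensities behind it were 87.4, 87.8 and 81.1 for the control peptide and 285, 277 and 209 for RI-BPI, detected on all 6 arrays, from 34 to 51 beads each. Cox6a2 had 1 probe, so no other probe bears on it. The muscle markers Myh7, Acta1, Ckm and Tnnt3 were not detected on any array, and their summed signal was 260 to 276 with the control peptide and 262 to 273 with RI-BPI. Cox6a1, the isoform found in most tissues, gave -0.12 (not called) and -0.29 (called) at its probes.

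Cox7a1, the other muscle and heart isoform measured, fell. It read 6.05, 6.18 and 6.35 with the control peptide and 5.80, 5.69 and 5.64 with RI-BPI, without overlap. Its change was -0.48 ± 0.11 (SE; limma, adjusted p = 0.000915), and with an offset of 50 it was -0.31. The remaining tissue isoforms Cox4i2, Cox6b2, Cox7b2, Cox8b and Cox8c were not detected on any array, with raw intensities of 36.1 to 49.1 over 6 probes.

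Cox7a2l read 10.47, 10.67 and 10.43 against 10.16, 10.06 and 10.21. The groups did not overlap, and the change was -0.38 ± 0.11 (SE; limma, adjusted p = 0.00552). Cox7a2, the isoform of most tissues, read 7.34, 7.26 and 7.23 against 6.82, 6.87 and 7.24. The third RI-BPI array lay within the control range, the change was -0.30 ± 0.12 (SE; limma, adjusted p = 0.0372), and leaving out any 1 array but the third of RI-BPI ended the call (adjusted p up to 0.155), with changes of -0.32 to -0.22.

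Without the tissue isoforms, 2 of 9 measured subunits of complex IV fell (22.2%, beside 30.6% of all measured genes). Cox4i1, which regulates the enzyme by binding ATP, read 12.36, 12.46 and 12.53 with the control peptide and 12.55, 12.52 and 12.27 with RI-BPI. Its change was -0.0050 ± 0.11 (SE), and the groups overlapped fully. Cox5a, a matrix-side subunit, read 12.45, 12.64 and 12.39 against 12.49, 12.66 and 12.52, a change of 0.06 ± 0.11 (SE) that was not called either (limma, adjusted p = 0.653). Cox6c and Cox6b1 changed by -0.27 and -0.22, Cox7b by 0.06 and Cox5b by 0.22, none called. Cox6b1 gave -0.14 and Cox5b -0.10 at their other probes.

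**Figure D4:**
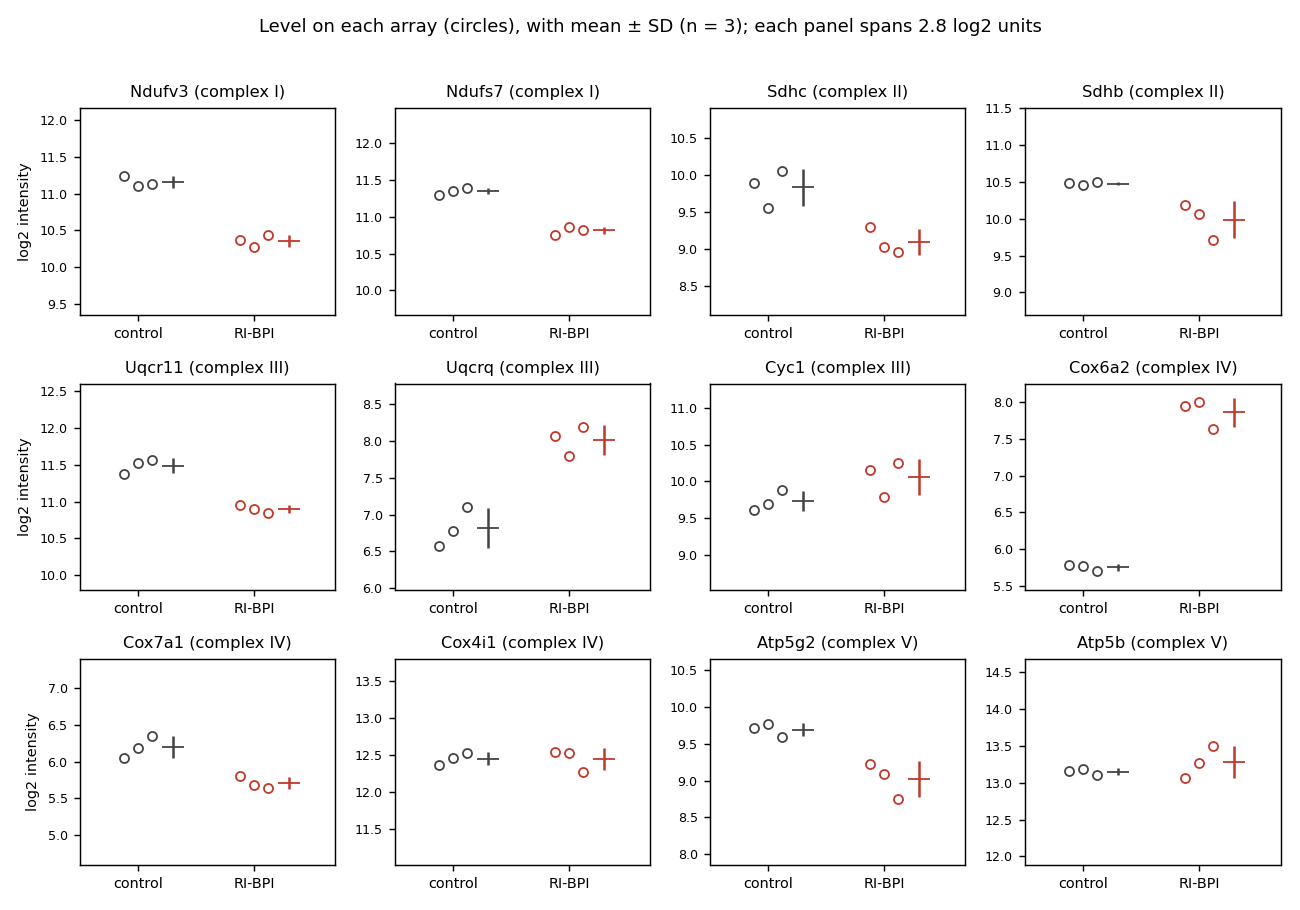
Log2 intensity on each array (circles) with the mean and SD of 3 arrays (cross) for 12 genes, control peptide in grey and RI-BPI in red; each panel spans the same number of log2 units. Cox6a2 and Uqcrq lie higher on all 3 RI-BPI arrays, Cox4i1 and Atp5b overlap, and Ndufv3, Ndufs7, Sdhc, Sdhb, Uqcr11, Cox7a1 and Atp5g2 lie lower on all 3.

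In complex V, the ATP synthase, 4 of 16 measured subunits fell and none rose (limma), with a median change of -0.13. At an unadjusted p under 0.05 it was again 4 lower and 0 higher, beside 2643 lower and 2682 higher of all 8205 measured genes. The share that fell, 25%, is below the 30.6% of all measured genes that were lower. Subunits were also grouped by role, after the values were seen. None of 5 subunits of the catalytic head and its central stalk (Atp5a1, Atp5b, Atp5c1, Atp5d and Atp5e) was called at the probe used. At an unadjusted p under 0.05 it was 0 as well. In the peripheral stalk 2 of 4 fell, in the c ring 1 of 2 measured genes fell and 1 of 5 small membrane subunits fell.

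Atp5g1, Atp5g2 and Atp5g3 encode the same mature subunit c, whose ring turns as protons pass. Atp5g2 fell: it read 9.72, 9.76 and 9.59 with the control peptide and 9.23, 9.09 and 8.75 with RI-BPI. The groups were apart, and the change was -0.67 ± 0.12 (SE), 1.59-fold lower (limma, adjusted p = 0.000113). Atp5g3 read 13.01, 13.05 and 13.23 against 13.06, 13.41 and 13.32, so the groups overlapped, and its change of 0.17 ± 0.12 (SE) was not called (limma, adjusted p = 0.222). Atp5g1 had no probe named here. The difference between Atp5g2 and Atp5g3 was not tested.

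Atp5pb, subunit b of the peripheral stalk that holds the head still, read 10.16, 9.86 and 10.02 against 9.48, 9.72 and 9.02. The third RI-BPI array was the lowest, and the change was -0.61 ± 0.14 (SE), 1.52-fold lower (limma, adjusted p = 0.00117). Its other kept probes gave -0.76, called, and 0.22, not called, and the mean of the kept probes gave -0.38. Atp5o, the stalk subunit that contacts the top of the head, read 11.86, 11.79 and 12.04 against 11.58, 11.58 and 11.56. All RI-BPI values were nearly equal and below the control values, a change of -0.32 ± 0.11 (SE; limma, adjusted p = 0.0149). The call for Atp5o was lost without control replicate 3, at -0.24 (adjusted p = 0.0935), and its other probe gave -0.41, called.

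Atp5mpl, a small membrane subunit, read 12.18, 12.32 and 12.23 with the control peptide and 11.43, 12.08 and 11.84 with RI-BPI. The first RI-BPI array was the lowest; the change was -0.46 ± 0.13 (SE; limma, adjusted p = 0.00618), and without that array it was -0.28 and not called (adjusted p = 0.0525). Its other probe gave -0.22, not called.

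Atp5b, the catalytic beta subunit, read 13.16, 13.19 and 13.10 against 13.07, 13.26 and 13.50. The RI-BPI values spread to both sides of the control values, and the change of 0.13 ± 0.12 (SE) was not called (limma, adjusted p = 0.370). Atp5a1, the alpha subunit, changed by 0.0056 at the probe used. Its other kept probe, annotated to a cDNA clone, rose by 0.78 (limma over probes, adjusted p = 6.46e-06).

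The other subunits of complex V, Atp5c1, Atp5d, Atp5e, Atp5h, Atp5j, Atp5j2, Atp5k, Atp5l and Atp5md, changed by -0.19 to -0.04 and were not called. Atp5l gave -0.10 at the probe used and fell at the other probe (-0.55), and Atp5j gave -0.12 and -0.03. Over all complexes 22 genes had more than 1 kept probe, and in 17 of them the probes differed by at least 1.5 times or in sign.

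The assembly factors, which build the complexes without being part of the finished enzymes, moved in both directions: of 39 measured, 19 fell and 8 rose. These are 48.7% lower and 20.5% higher, 69.2% called in all, beside 30.6%, 30.7% and 61.3% of all measured genes. For complex I, 6 of 12 fell and Timmdc1 rose (0.53). The share called was 58.3%, under the 61.3% of all measured genes. The lower share was above the background of 30.6%, and the higher share, 8.33%, was under that of 30.7%. Ndufaf5, a hydroxylase of Ndufs7, read 7.04, 6.99 and 7.06 with the control peptide and 6.07, 6.02 and 5.94 with RI-BPI, about a log2 unit lower on every array. The change was -1.02 ± 0.10 (SE), 2.03-fold lower (limma, adjusted p = 7.99e-08). Ndufaf7, a methyltransferase needed for assembly of the complex, changed by -0.64 ± 0.12 (SE; limma, adjusted p = 0.000188), and by -0.36 with an offset of 50. It was detected on 3 control arrays and 2 RI-BPI arrays. Of the other lower factors, Foxred1 (-0.56) and Acad9 (-0.35) gave -0.13 and -0.65 at their other probes.

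Of 8 assembly factors of complexes II and III, 3 fell and 2 rose. By share, 37.5% were lower and 62.5% were called in all, close to the 30.6% and 61.3% of all measured genes. The higher share was under the 30.7% of all measured genes. Sdhaf4, which helps the flavoprotein and iron-sulfur subunits of complex II to join, read 8.87, 8.91 and 8.89 against 7.86, 7.88 and 7.88. Its arrays were nearly identical within each group, and the change was -1.01 ± 0.10 (SE), 2.02-fold lower (limma, adjusted p = 7.08e-08). Bcs1l, the chaperone that inserts the Rieske protein into complex III, changed by -0.76 ± 0.11 (SE; limma, adjusted p = 6.39e-06). Ttc19 and Sdhaf1 rose by 0.67 and 0.32, with 0.13 and 0.33 at their other probes.

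For complex IV, 10 of 17 assembly factors fell and 3 rose (58.8% and 17.6%, beside 30.6% and 30.7% of all measured genes). Of the lower ones, Cmc1 (-0.54) and Lrpprc (-0.44) gave 0.20 and 0.05 at their other probes. The other probes of Coa3, Cox18 and Surf1 stayed negative. Pet100 changed by -0.82 ± 0.11 (SE; limma, adjusted p = 2.57e-06), and Surf1, whose human gene is mutated in Leigh syndrome, by -0.65 ± 0.14 (SE; limma, adjusted p = 0.000544), with -0.28 at its other probe. For complex V, both measured factors rose: Tmem70 by 0.63 ± 0.11 (SE; limma, adjusted p = 7.55e-05) and Atpaf2 by 0.32 ± 0.12 (SE; limma, adjusted p = 0.0234), the latter lost without control replicate 2 or RI-BPI replicate 1, at 0.21 and 0.27 (adjusted p up to 0.161).

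Among electron and nucleotide carriers, 7 of 15 fell and 4 rose (46.7% and 26.7%, beside 30.6% and 30.7% of all measured genes). Etfdh, which passes electrons from fatty acid oxidation to ubiquinone, changed by -0.70 ± 0.15 (SE; limma, adjusted p = 0.000404), and Gpd2, the mitochondrial glycerol phosphate dehydrogenase, by -0.58 ± 0.13 (SE; limma, adjusted p = 0.000516). Cycs, cytochrome c, changed by -0.13 and was not called, and its other probe gave 0.15.

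The list of regulators covers nuclear respiratory genes and also mitochondrial DNA, on which Twnk, Tfb2m and Polrmt act. Of its 15 measured genes 8 rose and 3 fell. These are 53.3% and 20.0%, beside 30.7% higher and 30.6% lower of all measured genes. Twnk, the mitochondrial DNA helicase, read 5.36, 5.59 and 5.55 with the control peptide and 7.21, 7.07 and 7.39 with RI-BPI. Every RI-BPI value lay more than a log2 unit above the control values, and the change was 1.73 ± 0.11 (SE), 3.31-fold higher (limma, adjusted p = 1.88e-10), with 0.45 at its other probe. Gabpb1, a subunit of GABP, read 5.59, 5.38 and 5.56 against 6.66, 6.39 and 6.50. The groups did not overlap, the change was 1.01 ± 0.11 (SE; limma, adjusted p = 2.49e-07), and its other probe gave 0.91. Across the alternative fits Twnk lay between 1.09 and 1.80 and Gabpb1 between 0.66 and 1.07.

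Also higher were the coactivators Pprc1 (1.00) and Ppargc1b (0.88), the DNA-binding GABP subunit Gabpa (0.59), the mitochondrial transcription factor Tfb2m (0.59), Nrf1 (0.36) and the mitochondrial RNA polymerase Polrmt (0.33). Lower were Tfb1m (-0.68), which methylates mitochondrial ribosomal RNA, Ssbp1 (-0.39), which binds mitochondrial DNA during its replication, and Esrra (-0.31), the estrogen-related receptor alpha. Tfb1m was detected on 3 control arrays and only 1 RI-BPI array, and the other probe of Esrra gave -0.07. Tfam, which packages mitochondrial DNA, changed by -0.24 and was not called, and its other probe gave 0.15. Ppargc1a and Yy1 were not detected on any array, and no probe was named for a mitochondrially encoded subunit, so the products of mitochondrial transcription were not analysed here.

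**Figure D5:**
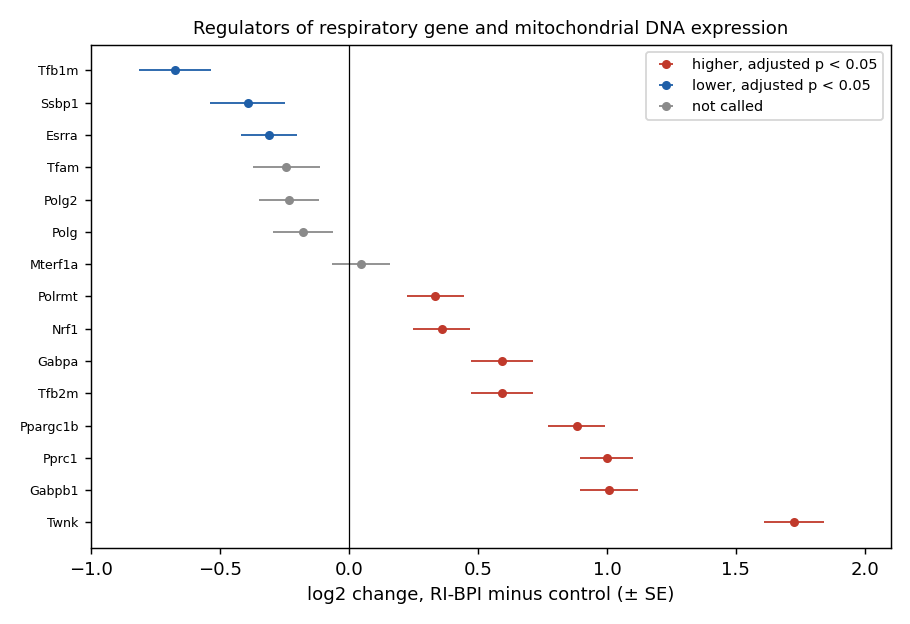
Log2 change (RI-BPI minus control) ± SE of the 15 measured regulators of respiratory gene and mitochondrial DNA expression, from 3 arrays against 3. The 8 red points (higher at an adjusted p under 0.05) run from 0.33 for Polrmt to 1.73 for Twnk, and the 3 blue points from -0.68 for Tfb1m to -0.31 for Esrra.

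Of the 30 calls among the subunits, 20 were kept in all 6 fits that left out 1 array, 21 in the 8 fits with other processing, and 19 in every fit. The 19 comprised Cox6a2 and Uqcrq among the higher genes and 17 lower genes. A further 12 subunits were called in at least 1 alternative fit and not here.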

How the data were processed

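Total RNA of 3 control peptide and 3 RI-BPI samples was hybridised to Illumina MouseWG-6 v2 bead arrays. The authors deposited a non-normalized table that holds, per the file headers, an intensity, a detection p-value, the bead standard error of the signal and a number of beads for each probe, and a table of normalized intensity values; the submitters' processing notes name GenomeStudio, with no version. Values were read from the non-normalized table, and the normalized table served as an alternative. With limma 3.58.1 in R 4.3.3 the intensities were background-corrected (normexp, background inferred from the deposited detection p-values, offset 16), quantile normalized and converted to log2. Probes of 1 symbol were kept with a detection p under 0.01 on at least 3 of 6 arrays, and the brightest kept probe stood for a gene. RI-BPI was compared with control by lmFit and eBayes, two-sided, with Benjamini-Hochberg adjustment over 8205 genes and a call at an adjusted p under 0.05; changes of other probes were adjusted over the kept probes. With 4 residual degrees of freedom per gene, the number of arrays limits the precision. The fit was tested on simulated data.

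The genes and the lists (assembly factors of each complex, carriers, transcription of respiratory genes, and markers of macrophages, neutrophils, dendritic cells, lymphocytes, stroma, erythroid and mast cells, and muscle) were chosen with earlier results of these data known. Values on each array are given for up to 4 called genes per direction and complex, for set core subunits, tissue isoforms and subunit c genes, and up to 2 called genes are named per further list; the regulators beyond those were named after their values were seen. Motifs were searched in RefSeq promoters (GRCm38.p6) with Python 3.11.15. The alternatives were the background correction, offset, scaling, the authors' table, the detection filter, the probe rule, the replicate number as a block, each array left out, and Ndufa4 counted in complex IV.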

Additional observations from a re-analysis of the deposited data

How the results depend on the processing

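The count of 27 lower subunits ran from 21 to 30 with 1 array left out and from 21 to 32 in the other fits, and the higher count was 3 as reported, 2 to 3 with 1 array left out and 5 with the mean of the kept probes. The median change of all measured subunits stayed negative: -0.21 with median centring, -0.12 with no detection filter, and -0.18 to -0.12 with 1 array left out. For complex I it was -0.31 with median centring and -0.27 to -0.20 with 1 array left out, and for complex II -0.26 with no filter. For complex IV it was -0.19 with median centring, -0.025 with no filter and -0.18 with the mean of the kept probes. For complex V it was -0.21 with median centring and -0.17 to -0.12 with 1 array left out. The median of complex III crossed 0 between -0.045 and 0.026 with 1 array left out. Median centring moved the median of all genes to -0.078. Called factors of complexes II and III numbered 3 to 5 with 1 array left out. Called factors of complex V numbered 1 with median centring and with no filter, and 1 to 2 with 1 array left out. With the replicate block the counts were 3 higher and 29 lower, and no call was lost. Same-numbered arrays did not deviate together (correlations across genes of 0.020, 0.0018 and 0.030), so the numbers were not read as pairs. Among the genes named with values on each array, signs turned in 3 that were not called as reported: Ndufv1 (0.0090 without RI-BPI replicate 3, within -0.20 to 0.0090 with 1 array left out), Cox4i1 (0.00030, 0.034 and 0.084 without control replicate 2, control replicate 3 and RI-BPI replicate 3, within a range of -0.055 to 0.084 with 1 array left out) and Cox5a (-0.028 with median centring). With no detection filter 7 of the 30 calls were lost (Ndufb3, Ndufa10, Ndufa5, Ndufc1, Cyc1, Cox7a2 and Atp5mpl), 19057 genes then being tested. Ndufb11 left the fit when its control arrays were reduced or all 6 arrays were required. For single genes, 624 results of other settings kept direction and side of the threshold, 38 lost the call and 5 turned. The number of arrays limits what small changes can be called.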
